A study of Homo sapiens with 6 samples.

Results

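The transcriptome described here is that of HepG2 cells carrying a control shRNA. HepG2 is a human line from a liver cancer that grows as an epithelial sheet and makes many of the proteins of liver plasma. The libraries were chosen by their titles, sh-ctrl-1, sh-ctrl-2 and sh-ctrl-3, and they are 3 of the 6 libraries of a study that compared them with cells in which the circular RNA circPRKAA1 was targeted. Those knockdown libraries are not used here, and no comparison is made. All 3 control libraries share the same description: genotype WT, infection with lentivirus carrying the sh-ctrl construct, and medium with serum. The control virus is part of the state described, since uninfected HepG2 cells were not analysed here. Whether these libraries stem from separate cultures is not stated in the labels, so the SD given with each mean covers these libraries and can be technical. The labels give the cell type as epithelial, while the growth protocol calls the cells mesenchymal, and both words are set against marker genes further on.

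Hepatocytes, the main cells of the liver, secrete albumin, apolipoproteins, clotting factors and complement into the blood. They also turn ammonia into urea, make glucose in fasting, make bile acids and clear drugs through cytochrome P450 enzymes. Nuclear factors such as HNF4A, FOXA2 and CEBPA hold this programme in place. A fetal liver programme, with AFP as its best known product, is shut down after birth and often returns in liver tumours. In HepG2 the CTNNB1 gene carries a known deletion that stabilises beta-catenin, the effector of WNT signals.

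The libraries held 16284262, 20282496 and 19126452 counts over 60612 genes. Levels are given as FPKM, the counts of a gene per kilobase of its exons and per 1000000 counts of the library, so that genes of different length can be compared within a library. At least 1 count was seen for 21073, 22254 and 21881 genes, and 11011, 11342 and 11238 genes reached 1 FPKM. In every library at once, 10606 of 60612 genes reached 1 FPKM, which is 17.5% of all genes. Among nuclear protein-coding genes it was 9461 of 19861, or 47.6%, and this is the share against which the lists below should be read. Below, a gene at the threshold has 1 FPKM or more in all 3 libraries.

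Most genes above the threshold sat at a low level. Of the nuclear protein-coding genes, 4348 had no count in any library, 3264 had counts but a mean under 0.1 FPKM, and 2498 had a mean from 0.1 to 1 FPKM. A mean from 1 to 10 FPKM was found for 5953 genes and from 10 to 100 FPKM for 3436. Only 341 genes had a mean from 100 to 1000 FPKM, and 21 had 1000 FPKM or more. Those 21 genes held 16.2% of the summed FPKM of nuclear protein-coding genes. The median over nuclear protein-coding genes at the threshold was 7.24 FPKM.

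**Figure D1:**
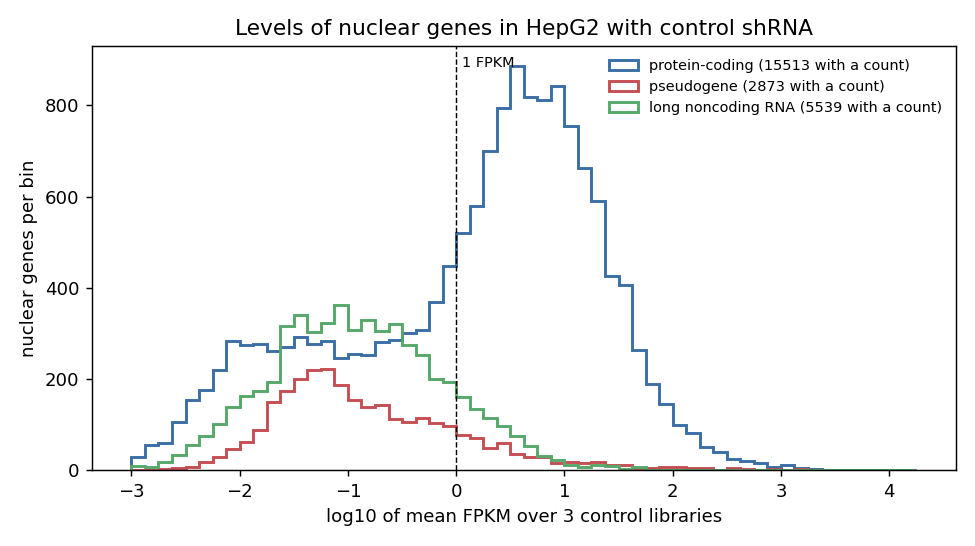
Number of nuclear genes (vertical axis) by the log10 of their mean FPKM over the 3 control libraries (horizontal axis), for protein-coding genes, pseudogenes and long noncoding RNA genes with at least 1 count. The protein-coding curve has a broad low part under the dashed line at 1 FPKM and a peak between 1 and 10 FPKM, and the other curves lie mostly under 1 FPKM.

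The 3 libraries were alike but not interchangeable. Values below are given in the order of libraries 1, 2 and 3, and no pair of libraries agreed within counting noise. For genes with 10 or more counts, chi-square per degree of freedom was 14.7 between libraries 1 and 2, 6.87 between 1 and 3 and 4.84 between 2 and 3. Over the 9461 nuclear protein-coding genes at the threshold the median coefficient of variation (CV, the SD as a percentage of the mean) was 7.53%, against 3.84% from counting error alone. It was 5.93% over the 3582 genes at 10 FPKM or more and 5.53% over the 340 genes at 100 FPKM or more, where counting error gave 0.994%. Without library 1 the median CV of the genes at the threshold was 4.83%. That value rests on 2 libraries per gene, which tends to lower a CV, so it is not directly comparable with the 7.53% over 3. For 92.3% of these genes the highest library was less than 1.5 times the lowest. Library 1 stood apart in a way that went with gene length. Among the genes at the threshold, 70.3% of the 397 genes of up to 1500 exonic bases were higher in library 1 than the geometric mean of libraries 2 and 3. Among the 1884 genes of over 8000 exonic bases it was 31.3%. The median log2 differences were 0.11 and -0.11.

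The highest nuclear protein-coding message was FTL, the light chain of the iron store ferritin, with 9964, 8752 and 8995 FPKM. Its mean of 9237 ± 641 FPKM (SD, n = 3) was above that of every other gene of the class, and the heavy chain FTH1 stood at 1149 ± 47.1 FPKM. Of the 2004 exonic bases of FTH1, 62.4% are overlapped by a gene on the opposite strand, and FTL has 871 exonic bases. The difference in FPKM between these chains is uncertain for that reason. APOA1, the main protein of high-density lipoprotein, came next with 3640.2, 3049 and 3220.4 FPKM, and APOA2, its partner on the same particle, had 2284, 2015 and 2100.4 FPKM. All 3 libraries placed these genes in the same order, with FTL above APOA1 and APOA1 above APOA2. Among the 25 highest messages, liver secretory products were APOA1, APOA2, AHSG, ALB, APOH, SERPINA1, AFP and AMBP. AHSG, the fetal serum glycoprotein fetuin-A, had 1798, 1622 and 1694 FPKM. ALB, albumin, had 1385, 1914 and 1628 FPKM, and AFP, alpha-fetoprotein, had 899, 1248 and 1092 FPKM. For ALB and AFP library 1 was the lowest and library 2 the highest. The neighbours AHSG and ALB lay within their spread of each other, at 1705 ± 88.7 FPKM and 1642 ± 265 FPKM. APOH, a phospholipid-binding plasma protein, averaged 1324 ± 81.2 FPKM, SERPINA1, the elastase inhibitor alpha-1-antitrypsin, 1194 ± 56.05 FPKM, and AMBP, the precursor of alpha-1-microglobulin and bikunin, 883 ± 57.9 FPKM (SD, n = 3 each). DKK1, a secreted antagonist of WNT receptors, had 1202, 1481 and 1245 FPKM, a level next to that of APOH. Other members of the 25 were general genes. Glycolysis was represented by GAPDH at 1986 ± 138 FPKM and ENO1 at 1001 ± 66.8 FPKM. Protein synthesis was represented by RPS2, EEF1A1, RPS12, RPL13A, EEF2, RPL19, RPLP0 and RPS18, with means from 813 to 1822 FPKM. TMSB10, an actin-binding peptide, averaged 1253 ± 90.7 FPKM, the actin gene ACTG1 939 ± 58.6 FPKM and the chaperone HSP90AB1 1052 ± 11.6 FPKM.

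**Figure D2:**
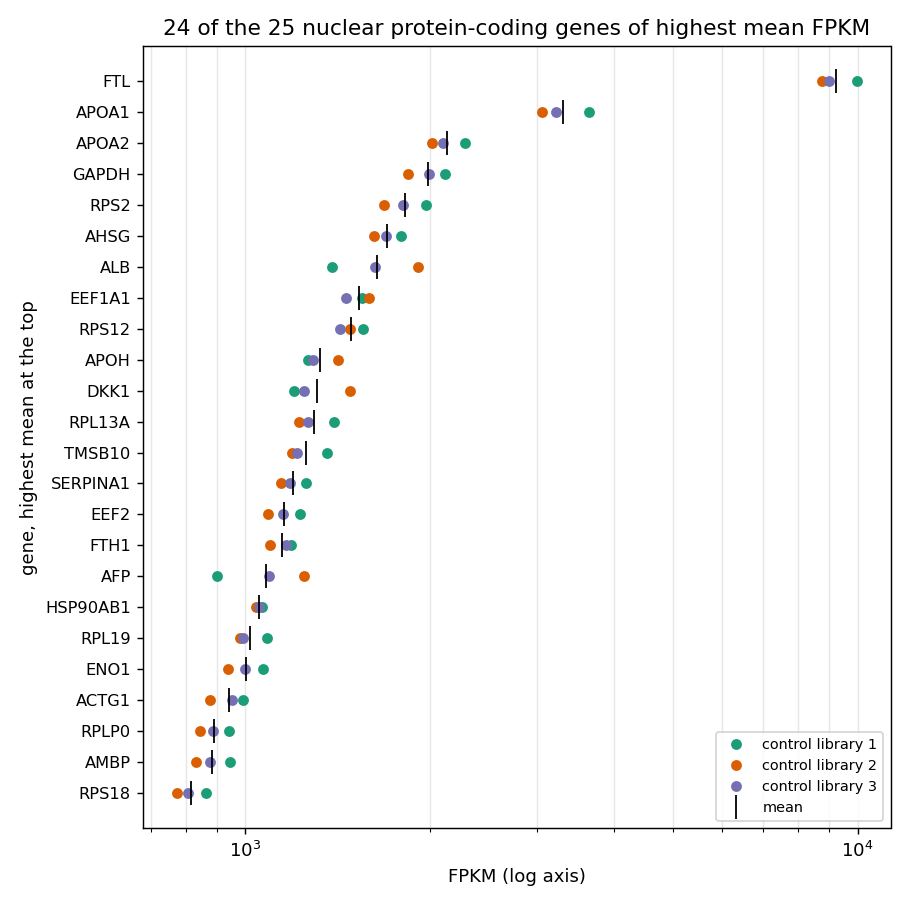
FPKM (horizontal log axis) in each control library for 24 of the 25 nuclear protein-coding genes of highest mean, with the mean as a vertical bar. FTL stands apart at 9237 FPKM, and for ALB and AFP the points of library 1 lie left of the other libraries.

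The 100 bases just before 1 annotated start per gene are shown for 10 of these messages. They let the promoters of the liver genes be read beside those of general genes. They come from RefSeq (GRCh38.p14). The stretches of ALB, APOH, AFP, GAPDH and RPLP0 lie within the annotated span of the gene. For these genes a start further upstream is annotated, and the stretch before it is not shown here. GAPDH, for example, spans chr12:6534512-6538374. Positions and strands were APOA2 chr1:161223629-161223728 (-), AHSG chr3:186612960-186613059 (+), ALB chr4:73404187-73404286 (+), APOH chr17:66229416-66229515 (-), AFP chr4:73436121-73436220 (+), DKK1 chr10:52314181-52314280 (+), FTL chr19:48965209-48965308 (+), GAPDH chr12:6535164-6535263 (+), RPL13A chr19:49487508-49487607 (+) and RPLP0 chr12:120201112-120201211 (-). Capitals mark matches on either strand to TATAAA, the TATA box core, GTTAAT, a string known from liver promoters, CCAAT, the core bound by NF-Y and C/EBP factors, and GGCGGG, the core of the SP1 motif. Read 5′ to 3′ on the gene's own strand they are as follows.
APOA2: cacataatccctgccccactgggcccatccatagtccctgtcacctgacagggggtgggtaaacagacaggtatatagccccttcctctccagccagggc
AHSG: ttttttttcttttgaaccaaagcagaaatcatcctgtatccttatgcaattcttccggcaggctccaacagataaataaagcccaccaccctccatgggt
ALB: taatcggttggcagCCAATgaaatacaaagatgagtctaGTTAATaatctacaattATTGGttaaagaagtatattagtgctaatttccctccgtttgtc
APOH: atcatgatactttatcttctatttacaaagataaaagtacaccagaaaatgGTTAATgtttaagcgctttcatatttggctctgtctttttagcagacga
AFP: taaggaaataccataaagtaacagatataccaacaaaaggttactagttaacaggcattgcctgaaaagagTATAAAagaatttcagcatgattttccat
DKK1: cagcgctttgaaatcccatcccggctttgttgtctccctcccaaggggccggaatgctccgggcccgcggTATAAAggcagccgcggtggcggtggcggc
FTL: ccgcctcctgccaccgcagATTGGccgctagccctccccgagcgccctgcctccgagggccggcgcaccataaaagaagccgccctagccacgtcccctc
GAPDH: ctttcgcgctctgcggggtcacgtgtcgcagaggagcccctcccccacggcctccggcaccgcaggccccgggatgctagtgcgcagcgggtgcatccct
RPL13A: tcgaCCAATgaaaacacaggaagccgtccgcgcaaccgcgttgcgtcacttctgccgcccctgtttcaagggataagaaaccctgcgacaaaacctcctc
RPLP0: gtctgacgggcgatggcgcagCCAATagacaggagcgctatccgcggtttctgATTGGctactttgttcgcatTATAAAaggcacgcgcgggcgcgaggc

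In the liver genes the ALB stretch held GTTAAT and a CCAAT match on each strand, the AFP stretch held TATAAA starting 29 bases before the start, and the APOH stretch held GTTAAT. The stretches of APOA2 and AHSG held none of the 4 strings. DKK1 and RPLP0 held TATAAA, starting 30 and 27 bases before the start. RPL13A and FTL held CCAAT matches, RPLP0 held a CCAAT match on each strand, and the GAPDH stretch, which lies inside the gene, held none. No stretch shown held GGCGGG. Over the 300-base promoters that begin 250 bases before the start, the CG dinucleotide occurred 4 times for ALB, 1 for AFP, 1 for APOA2, 3 for AHSG and 3 for APOH. In the general genes it occurred 23 times for FTL, 25 for RPLP0, 28 for GAPDH and 31 for RPL13A, and it occurred 20 times for DKK1. The 5 liver promoters thus held fewer CG than each of the other 5. Of all 35116 promoters of this length in the table, 11.5% held TATAAA, 6.88% GTTAAT, 34.6% CCAAT and 44.99% GGCGGG on either strand, and the median number of CG was 14. These are matches of letters, not sites of binding. By level, TATAAA was held by 4.96% of the 4834 matched promoters of nuclear protein-coding genes with a mean of 1 to 10 FPKM, by 4.58% of 2839 from 10 to 100 FPKM, and by 11.99% of 292 at 100 FPKM or more. The last of these shares rests on 35 promoters. In the same classes GTTAAT was held by 3.48%, 3.73% and 4.11%. CCAAT was held by 36.0%, 38.8% and 45.9%, and GGCGGG by 71.3%, 74.4% and 68.2%. The median number of CG in these classes was 27, 27 and 25.5. The values over all 35116 promoters, the median of 14 CG included, are not directly comparable with these classes. That set was not limited to nuclear protein-coding genes or to 1 promoter per gene. Under 80% of the genes below 1 FPKM had a promoter in the table, so the same counts are void for them.

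The mitochondrial genome supplied 9.44, 9.46 and 9.801% of all counts in libraries 1 to 3. The 10 most counted genes of the table, mitochondrial ones included, took 10.4 ± 0.164% of counts. The mitochondrial messages encode subunits of the respiratory chain and of ATP synthase. They took 7.38 ± 0.278% of counts and its ribosomal RNAs 2.17 ± 0.227% (SD, n = 3 each). All 13 messages were far above the threshold, between 1395 FPKM for MT-ND6 and 14904 FPKM for MT-CO1. The 3 cytochrome oxidase messages were the highest, with MT-CO1 at 14904 ± 439 FPKM, MT-CO3 at 14421 ± 843 FPKM and MT-CO2 at 13718 ± 613 FPKM (SD, n = 3 each). MT-CO1 and MT-CO3 lay within their spread of each other, while MT-CO1 was above MT-CO2 by more than either SD. Among the NADH dehydrogenase messages MT-ND3 was highest at 7551 FPKM, followed by MT-ND1 at 4851 FPKM. MT-ATP6 averaged 4455 FPKM and MT-CYB 4119 FPKM. Because FPKM divides by length, short messages such as MT-ND4L, at 2333 FPKM, and MT-ATP8, at 1792 FPKM, rest on fewer counts. MTATP6P1, a nuclear pseudogene copy of mitochondrial sequence, was listed with 5708, 6476 and 6735 counts, and reads of the copy and of the mitochondrial genome cannot be told apart here.

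Genes other than protein-coding ones carried few counts. Long noncoding RNA genes held 0.916 ± 0.0262% of counts, and 607 of 14828 were at the threshold. Pseudogenes held 1.29 ± 0.0146%, with 413 of 15167 at the threshold, and small RNA genes held 0.00814 ± 0.000144% (SD, n = 3 each). The 10 highest other nuclear genes included RPL13AP5 at 1582 ± 61.2 FPKM, PPIAP22 at 1227 ± 45.3 FPKM, EEF1A1P5 at 754 ± 53.8 FPKM, RPS2P5 at 442 ± 60.4 FPKM, RPL18AP3 at 425 ± 51.6 FPKM and RPS27AP16 at 399 ± 40.7 FPKM. These pseudogenes are near copies of messages that were themselves among the highest, so how reads were split between copy and parent is uncertain.

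For the ribosomal protein genes the counts show where reads were assigned, not which copy they came from. RPS28 itself had 178, 204 and 191 counts, while pseudogenes named after it had 5591, 6260 and 6048. In RPS28, RPL39, RPL21 and RPL41 over 50% of the combined counts lay in pseudogenes, and over all 84 ribosomal protein genes the share was 5.79%.

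In the list of 33 long noncoding RNAs, 19 were at the threshold, with a median of 3.91 FPKM. NORAD, which binds PUMILIO proteins, was highest with 55.4, 75.9 and 72.2 FPKM. Hosts of small nucleolar RNAs followed, with SNHG29 at 49.8 FPKM, SNHG3 at 49.5 FPKM and SNHG6 at 41.6 FPKM. MALAT1 and NEAT1, nuclear RNAs that are often abundant, averaged 2.32 FPKM and 1.12 FPKM. SNHG19, at 122 ± 16.9 FPKM (SD, n = 3), was the highest long noncoding RNA gene of at least 300 exonic bases in the table, and it was not in the list. At the low end, the imprinted RNA H19, often high in fetal liver, had 2, 7 and 7 counts, HULC, named for liver cancer, had 39, 112 and 84 counts, and HOTTIP and FENDRR had none.

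Products that the liver secretes were a prominent group. Plasma proteins and apolipoproteins together held 7.79%, 7.78% and 7.78% of the summed FPKM of nuclear protein-coding genes, or 7.78 ± 0.00425% (SD, n = 3). The shares of the 2 lists varied more than their sum, with 4.84 ± 0.158% for plasma proteins and 2.94 ± 0.161% for apolipoproteins (SD, n = 3 each). In FPKM, the plasma protein list was lowest in library 1, where the apolipoprotein list was highest. Of the plasma proteins, 30 of 36 were at the threshold, with a median of 56.2 FPKM. The protease inhibitor A2M averaged 758 ± 24.8 FPKM, ITIH2, a heavy chain that joins bikunin, 628 ± 26.8 FPKM, and the retinol carrier RBP4 516 ± 37.9 FPKM (SD, n = 3 each). The iron carrier TF had 183, 174 and 173 FPKM.

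Several abundant plasma proteins of adult liver were below the 56.2 FPKM median of the plasma protein list, and some were near 0. TTR, the carrier of thyroid hormone and retinol-binding protein, had 13.7, 11.96 and 14.9 FPKM, and the haem carrier HPX averaged 1.91 FPKM. For comparison, RBP4, which TTR carries in plasma, stood far above TTR in each library. The vitamin D carrier GC had 0.0879, 0.212 and 0.0499 FPKM, and HRG, a histidine-rich plasma glycoprotein, had 2, 0 and 2 counts. ITIH4 stood at 0.03499 FPKM, and 73.6% of its exonic bases are shared with another gene on the same strand, so its low value is uncertain.

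Of the apolipoproteins and factors of lipoprotein assembly, 17 of 21 were at the threshold, with a median of 13.8 FPKM. After APOA1 and APOA2, APOE, a ligand of lipoprotein receptors, had 773, 681 and 696 FPKM. APOB, the scaffold of very low-density lipoprotein, had 153, 192 and 213 FPKM, with library 1 lowest. MTTP, which loads lipid onto APOB, averaged 13.8 ± 2.91 FPKM (SD, n = 3). LPA, the protein that marks lipoprotein(a), and APOD had no count, which allows at most 0.00837 and 0.0266 FPKM when 3 counts over the 3 libraries together are taken as the limit. APOC4 stood at 0.0664 FPKM, with 82.996% of its exonic bases shared with another gene on the same strand.

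Coagulation factors and their regulators had 16 of 24 at the threshold. The fibrinogen chains were unequal: FGA had 405, 422 and 402 FPKM, FGG had 216, 308 and 259 FPKM, and FGB had 47.6, 65.3 and 57.9 FPKM. In every library FGA was highest and FGB lowest. Prothrombin, F2, averaged 179 ± 8.34 FPKM, the plasmin inhibitor SERPINF2 248 ± 14.3 FPKM and antithrombin, SERPINC1, 57.2 ± 2.93 FPKM (SD, n = 3 each). F9, the gene of haemophilia B, and F13A1 had no count, with limits of 0.01396 and 0.0118 FPKM. F8, made mostly by endothelial cells, averaged 0.03801 FPKM, and plasminogen, PLG, 0.361 FPKM.

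In the complement list 18 of 30 were at the threshold. C3, on which all activation routes meet, had 178, 158 and 173 FPKM, and the next members, C2 and C4BPA, averaged 31.4 and 24.3 FPKM. C9 and C7 had no count, and their limits were 0.0179 and 0.00806 FPKM. C7 and C9 belong to the membrane attack complex. C4A and C4B are near-identical copies, and their 12.2 and 9.01 FPKM are uncertain for that reason.

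Acute phase genes, which interleukin-6 raises in liver, had 14 of 19 at the threshold. ORM1 and ORM2, similar copies of orosomucoid, averaged 166 and 138 FPKM, LRG1 averaged 25.5 FPKM and haptoglobin, HP, 11.03 FPKM. The most inducible members were at 0: CRP, SAA1 and SAA2 had no count, with limits of 0.0267, 0.0759 and 0.02403 FPKM. The signalling genes were present, with STAT3 at 19.5 FPKM, IL6ST at 7.21 FPKM and IL6R at 3.71 FPKM.

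Hormones and growth factors of liver had 14 of 24 at the threshold. Angiotensinogen, AGT, had 644, 582 and 620.4 FPKM, and IGFBP1, which holds insulin-like growth factors in plasma, had 295, 310.4 and 296 FPKM. GDF15, a hormone of cell stress, averaged 147 ± 5.18 FPKM and ANGPTL8, an inhibitor of lipoprotein lipase, 53.8 ± 1.66 FPKM (SD, n = 3 each). IGF2, the fetal growth factor, had 35.3, 31.2 and 34.6 FPKM, whereas IGF1, its adult relative, had no count, with a limit of 0.00664 FPKM. Of the exonic bases of IGF2, 73.7% are shared with a further annotated gene of the same name, and 82.4% of those of IGF1 are overlapped by a gene on the opposite strand. IGFBP2 had 4, 7 and 5 counts and HGF had none.

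The factors that hold liver identity were present. Of 34 liver transcription factors, 29 were at the threshold, against 47.6% of all nuclear protein-coding genes, with a median of 9.44 FPKM. XBP1, the factor of the unfolded protein response and of secretory cells, was highest with 221, 209.8 and 216 FPKM, and CEBPB had 119, 107 and 109.8 FPKM. NR0B2, the bile acid induced repressor SHP, averaged 107 ± 4.19 FPKM and CEBPA 71.04 ± 5.16 FPKM (SD, n = 3 each). HNF4A, the nuclear receptor at the centre of hepatocyte identity, had 55.6, 52.4 and 53.3 FPKM, while its paralog HNF4G had 1.69, 2.68 and 2.39 FPKM. In each library HNF4A stood above HNF4G.

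The pioneer factors FOXA3, FOXA2 and FOXA1 averaged 33.7, 27.7 and 20.03 FPKM. Among the other nuclear receptors, NR2F6 averaged 51.6 FPKM, RXRA 11.2, the bile acid receptor NR1H4 10.5, the oxysterol receptor NR1H3 7.89, NR2F1 6.49, NR2F2 2.91, PPARA 2.61 and NR5A2 2.24 FPKM. The xenobiotic sensors were low, with NR1I2 at 3.27 and NR1I3 at 0.8497 FPKM. NR1I3 was the only nuclear receptor of the list under the threshold. Other members were HHEX at 37.1, MLXIPL, the carbohydrate response factor ChREBP, at 23.8, CEBPD at 21.1, ATF5 at 18.9, GATA4 at 10.8, TBX3 at 8.41, CREB3L3 at 7.09, PROX1 at 7.04 and GATA6 at 5.14 FPKM. The lowest were ONECUT2 at 1.28, ONECUT1 at 1.18, KLF15 at 0.532 and LHX2, known from stellate cells of mouse, at 0.0234 FPKM. Both ONECUT genes were under 1 FPKM in library 1 and above it in libraries 2 and 3.

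The 27 markers of mature hepatocytes covered a wide range of levels. Of these, 12 were at the threshold, a share close to the 47.6% of all nuclear protein-coding genes. No count was seen for 4, and the median was 0.241 FPKM, or 0.154 FPKM without library 3. Those at the threshold were mainly secreted proteins: APOA1, ALB and SERPINA1 stood above 1000 FPKM, as given above, and APOC3 averaged 184, TF 177 and FGB 56.9 FPKM. The asialoglycoprotein receptor chains ASGR2 and ASGR1 averaged 148 and 145 FPKM, and HPD, an enzyme of tyrosine breakdown, 141 FPKM. The lowest members at the threshold were TTR, G6PC and CPS1. TTR averaged 13.5 FPKM, and G6PC, the last step of glucose release, and CPS1, the entry step of the urea cycle, averaged 3.53 and 2.54 FPKM.

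Those under the threshold were mainly enzymes and transporters of adult liver. TAT averaged 0.774 FPKM, ARG1 0.241, OTC 0.134 and PCK1 0.0714 FPKM. The drug enzymes CYP1A2, CYP2E1, CYP2A6 and CYP3A4 averaged 0.0721, 0.0436, 0.0244 and 0.0203 FPKM. The uptake transporters SLC10A1 and SLCO1B1 averaged 0.0271 and 0.02504 FPKM. ABCB11, the bile salt export pump, TDO2, F9 and CRP had no count, and the limits for ABCB11 and TDO2 were 0.00698 and 0.0102 FPKM.

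Fetal liver and liver cancer markers had 15 of 22 at the threshold, with a median of 14.8 FPKM. AFP was 0.657 ± 0.0118 times ALB per exonic base (SD, n = 3), a ratio that varied less than either gene. PEG10, an imprinted gene, had 135, 165 and 161 FPKM, and DLK1, a marker of liver progenitors, averaged 33.8 ± 2.45 FPKM. IGF2BP1, a fetal RNA-binding protein, had 32.3, 32.1 and 34.9 FPKM and GPC3, a surface marker of liver cancer, had 13.7, 13.1 and 13.6 FPKM. TERT, the catalytic part of telomerase, averaged 2.48 ± 0.0201 FPKM (SD, n = 3 each). PROM1 and H19 were near 0, at 0.00742 and 0.09595 FPKM, and CYP3A7, the fetal form of CYP3A4, averaged 0.141 FPKM.

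**Figure D3:**
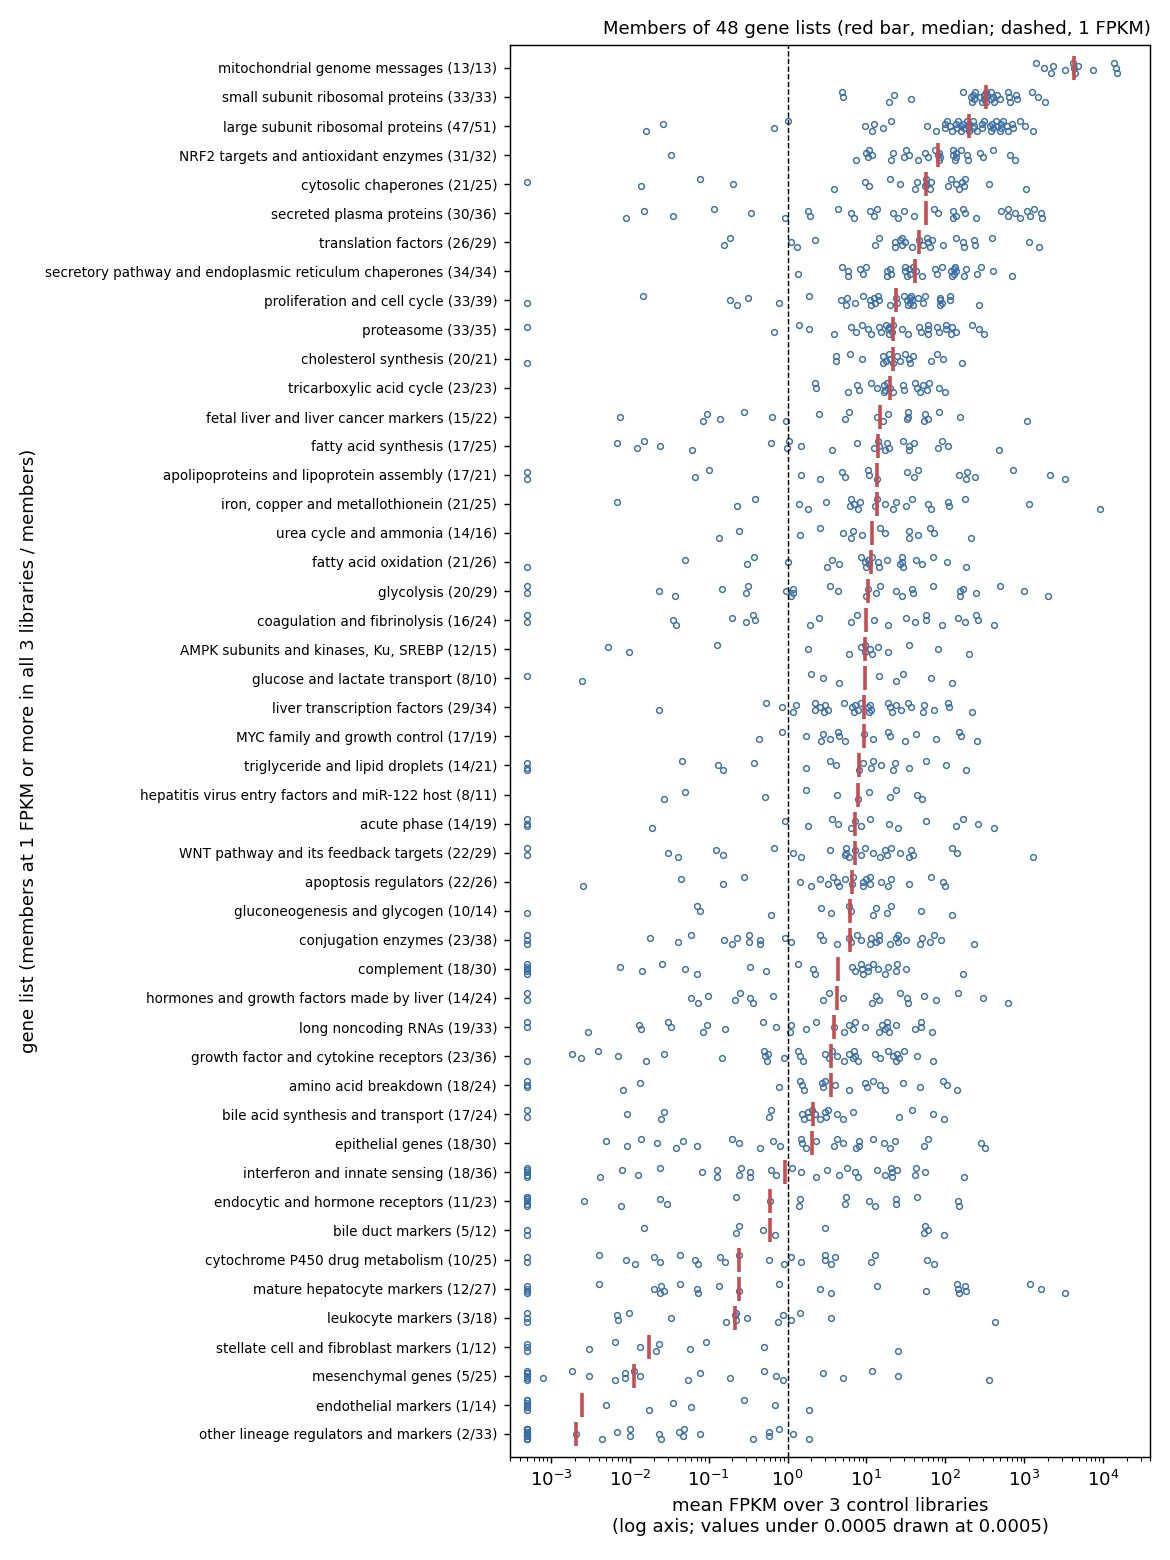
Mean FPKM (horizontal log axis) of each member of the 48 gene lists (rows, ordered by median), with the members at 1 FPKM or more in all 3 libraries over the members in the table beside each name. The medians of the ribosomal, antioxidant and plasma protein lists lie right of the dashed line at 1 FPKM, and those of the P450, mature hepatocyte, leukocyte, stellate, mesenchymal, endothelial and other lineage lists lie left of it.

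Genes of drug metabolism were uneven. Of the cytochrome P450 list, 10 of 25 were at the threshold, or 40%, against 47.6% of all nuclear protein-coding genes. The median of the list was 0.245 FPKM. The highest members were not P450 enzymes themselves: POR, the electron donor of the P450s, had 75.05, 69.5 and 73.4 FPKM, and CYB5R3 averaged 59.1 ± 4.61 FPKM (SD, n = 3). The highest P450 enzyme of this list was CYP2W1, a form described in tumours and fetal gut, with 11.2, 11.4 and 11.5 FPKM. CYP3A4, the main drug-metabolising P450 of adult liver, had 0, 1 and 3 counts. CYP2C19 and CYP4A11 had no count.

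Conjugation enzymes had 23 of 38 at the threshold. GSTO1 averaged 229.8 ± 18.6 FPKM, EPHX1, the microsomal epoxide hydrolase, 88.03 ± 5.23 FPKM, SULT2A1, the sulfotransferase of bile acids and steroids, 71.9 ± 5.81 FPKM and UGT2B10 50.6 ± 10.9 FPKM (SD, n = 3 each). GSTP1, a glutathione transferase that is low in hepatocytes, had 1, 1 and 4 counts against 204, 339 and 240 counts for the liver form GSTA1. NNMT and NAT2 had no count. Members of the UGT1A group share exons, with 49.9% of the exonic bases of UGT1A1 in another gene, so their single values are uncertain.

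For bile acids, 17 of 24 were at the threshold, but at a median of 2.13 FPKM. CYP27A1, of the acidic route of synthesis, had 104, 89.6 and 96.7 FPKM, while CYP7A1, the rate-limiting enzyme of the classic route, had 1.56, 1.61 and 1.65 FPKM. FGFR4, the receptor through which gut FGF19 restrains synthesis, averaged 69.1 ± 3.47 FPKM and ABCC2, a canalicular exporter of conjugates, 38.2 ± 4.59 FPKM (SD, n = 3 each).

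Nitrogen handling was present in part. In the urea and ammonia list 14 of 16 were at the threshold. GLUD1, which releases ammonia from glutamate, had 209.8, 225 and 208 FPKM, ASS1 averaged 35.1 and ASL 6.81 FPKM. CPS1 had 2.41, 2.61 and 2.6004 FPKM, OTC had 0.07298, 0.234 and 0.0932 FPKM and ARG1 had 0.166, 0.133 and 0.424 FPKM, so OTC and ARG1 lay under the threshold and CPS1 just above it. GLS2, the glutaminase of adult liver, averaged 1.43 FPKM, and 77.1% of its exonic bases are overlapped by a gene on the opposite strand. ARG2, the mitochondrial arginase, averaged 6.35 ± 0.695 FPKM (SD, n = 3) and was higher than ARG1 in each library.

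Of the genes of amino acid breakdown 18 of 24 were at the threshold. HPD averaged 141 ± 12.999 FPKM and MAT1A, the liver form of methionine adenosyltransferase, 104 ± 1.33 FPKM (SD, n = 3 each). MAT1A exceeded MAT2A, the form of growing cells, with a log2 ratio of MAT2A over MAT1A of -2.51 ± 0.23. TDO2, PRODH and DPYS had no count.

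In glucose metabolism the liver form was the lower one in several enzyme pairs. Of the glycolysis genes 20 of 29 were at the threshold. HK2 had 36.9, 39.2 and 37.1 FPKM, against 0.351, 0.2897 and 0.299 FPKM for HK1, so HK2 was far above HK1 in each library. ALDOA had 76.5, 63.5 and 69.1 FPKM, and 42.3% of the exonic bases of ALDOA are shared with another gene on the same strand. LDHA had 241, 249 and 235 FPKM, while LDHB had 3, 3 and 0 counts with 33.4% of its exonic bases shared. PKM exceeded the liver pyruvate kinase PKLR by 3.97 ± 0.06 on the log2 scale, and PKLR itself was well detected at 10.6 ± 1.15 FPKM (SD, n = 3 each). Among phosphofructokinases the order was opposite, since the liver form PFKL had 31.1, 25.9 and 28.02 FPKM against 1.32, 0.941 and 1.27 FPKM for PFKP.

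In glucose uptake the general transporter was the highest. SLC2A1 had 127, 118 and 121 FPKM, SLC2A3 had 24.003, 24.1 and 23.5 FPKM and the liver transporter SLC2A2 had 1.58, 2.21 and 2.16 FPKM, and 8 of 10 genes of the transport list were at the threshold. The lactate exporter SLC16A3 averaged 65.5 ± 5.004 FPKM (SD, n = 3).

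In gluconeogenesis and glycogen metabolism 10 of 14 were at the threshold. PCK2, the mitochondrial PEP carboxykinase, had 132, 115 and 121 FPKM, while the cytosolic form PCK1 had 6, 19 and 3 counts. FBP1 averaged 0.6205 FPKM. PYGB, the phosphorylase named for brain, exceeded the liver form PYGL by 1.29 ± 0.11 on the log2 scale (SD, n = 3). GYS1 averaged 5.99 FPKM, and the liver glycogen synthase GYS2 had no count, though 87.5% of its exonic bases are shared with another gene on the same strand and 11.97% with a gene on the opposite strand.

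All 23 genes of the tricarboxylic acid cycle were at the threshold, with a median of 19.8 FPKM. They ran from 2.202 FPKM for IDH3A to 97.8 FPKM for IDH1, and MDH2 averaged 82.9 ± 6.01 FPKM (SD, n = 3).

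**Figure D4:**
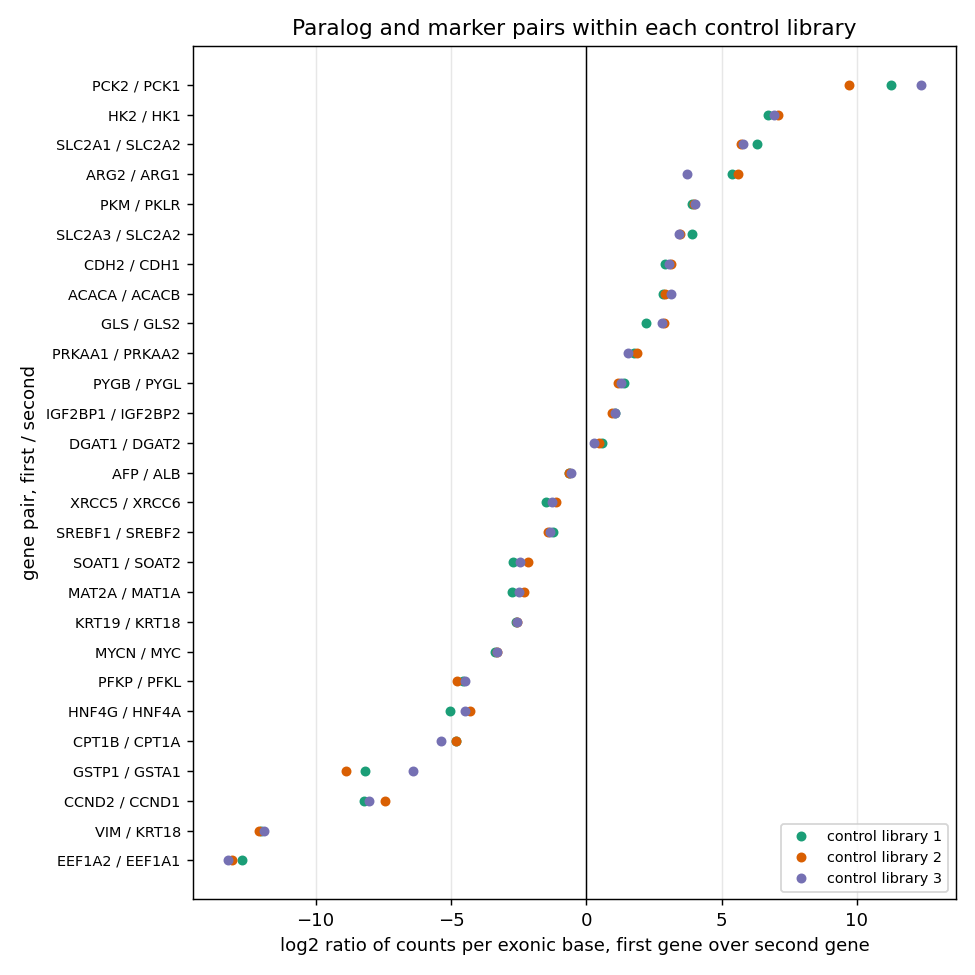
Log2 ratio of counts per exonic base (horizontal axis), first over second gene, in each control library for 27 of the 31 pairs with counts in every library. For each pair drawn the 3 libraries lie on the same side of 0, and points are widest apart where a gene of the pair has few counts, as for PCK2 over PCK1 (11.11 ± 1.33, SD, n = 3).

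The ratios within a library, which depend neither on depth nor on scaling, had the same sign in all 3 libraries for each of the 31 pairs that could be formed. With 3 libraries a two-sided exact test on these ratios cannot go below p = 0.25, so none was run. CDH2 exceeded CDH1 by 3.02 ± 0.11, ACACA exceeded ACACB by 2.95 ± 0.15 and IGF2BP1 exceeded IGF2BP2 by 1.03 ± 0.07 on the log2 scale (SD, n = 3 each). MYCN was below MYC by a log2 ratio of -3.31 ± 0.04, and CCND2 below CCND1 by -7.89 ± 0.40. The ratio of DGAT1 over DGAT2, 0.45 ± 0.15 per exonic base, was the smallest in size, and it turned to -0.49 when counts were not divided by exonic length.

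Genes of lipid synthesis, the process named by the study, were uneven in level. Of the fatty acid synthesis list 17 of 25 were at the threshold, with a median of 13.99 FPKM. SCD, which makes monounsaturated fatty acids, had 474, 467 and 490.5 FPKM, far above FASN, the synthase itself, with 117, 97.9 and 109.6 FPKM. ACLY, which supplies acetyl-CoA, averaged 80.8 ± 4.05 FPKM, and the citrate carrier SLC25A1 91.5 ± 8.82 FPKM. ACACA, the carboxylase of the pathway, was much lower, at 7.61 ± 0.359 FPKM (SD, n = 3 each). INSIG1, which holds SREBPs in the endoplasmic reticulum, had 1, 3 and 1 counts, while INSIG2 averaged 14.2 FPKM. ME1 had 0, 2 and 1 counts.

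Of the regulators named with the study, the Ku genes were high and the AMPK genes low to moderate. SREBF1 had 15.2, 13.5 and 13.3 FPKM and SREBF2 had 35.5, 35.4 and 34.1 FPKM, with SREBF2 higher in each library. XRCC6, the Ku70 gene, had 205, 192 and 194 FPKM, and XRCC5, the Ku80 gene, had 73.3, 88.2 and 81.8 FPKM. Ku70 and Ku80 form a heterodimer that binds DNA ends, and PRKDC, the kinase it recruits, averaged 19.02 ± 1.98 FPKM (SD, n = 3). PRKAA1, a catalytic subunit of AMP-activated kinase and the host gene of circPRKAA1, had 4.44, 7.05 and 6.46 FPKM, and the other catalytic subunit PRKAA2 had 1.31, 1.896 and 2.19 FPKM. For both genes library 1 was the lowest. Gene counts do not separate the circular RNA from the message.

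The other AMPK subunits and upstream kinases were PRKAB2 at 11.1, PRKAG1 at 9.601, PRKAB1 at 9.58, STK11 at 11.6 and CAMKK2 at 8.55 FPKM. CAMKK1 averaged 0.126, PRKAG2 0.00968 and PRKAG3 0.00523 FPKM, and with the Ku, PRKDC and SREBF genes 12 of 15 genes of the list were at the threshold. The gamma subunit was thus represented by PRKAG1 far above the others.

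Most genes of the other lipid pathways were at the threshold. Of the cholesterol synthesis genes 20 of 21 were at the threshold, and the exception, IDI2, had no count, with 75.1% of its exonic bases overlapped by a gene on the opposite strand. The farnesyl diphosphate synthase FDPS averaged 94.5 ± 3.52 FPKM (SD, n = 3).

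For fatty acid oxidation 21 of 26 were at the threshold. FABP1, the fatty acid carrier of liver, had 169.6, 197 and 177 FPKM, the trifunctional protein subunit HADHA averaged 106 ± 3.89 FPKM and CPT1A, the gate of mitochondrial import, 11.8 ± 0.703 FPKM (SD, n = 3 each). CPT1B stood at 0.3796 FPKM with 66.4% of its exonic bases shared with another gene on the same strand.

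For triglycerides and lipid droplets 14 of 21 were at the threshold. The droplet coat PLIN2 had 106, 100.3 and 101 FPKM and PLIN3 averaged 56.7 ± 4.62 FPKM, while PLIN1, PLIN4 and PLIN5 averaged 0.1301, 0.372 and 0.1497 FPKM. CIDEB had no count, and 100% of its exonic bases are overlapped by a gene on the opposite strand. FABP4 and CIDEA, fat cell genes, had none either.

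Antioxidant genes formed a high group. Of the list of NRF2 targets and antioxidant enzymes, 31 of 32 were at the threshold and 13 averaged at least 100 FPKM. PRDX1, a peroxiredoxin, had 815, 773 and 739 FPKM, and GPX2, the glutathione peroxidase of gut epithelium, had 699.9, 628 and 631 FPKM. NQO1, a quinone reductase and standard readout of NRF2, had 420.2, 395 and 392 FPKM. The reductases AKR1C3, AKR1C2 and AKR1C1, which are similar in sequence, averaged 158, 135 and 127 FPKM. NFE2L2, the NRF2 gene itself, and its inhibitor KEAP1 averaged 20.4 and 31.6 FPKM, and extracellular SOD3 was the member below the threshold.

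In the iron, copper and metal list 21 of 25 were at the threshold. Below ferritin, the zinc and iron importer SLC39A14 averaged 108 ± 2.18 FPKM and the transferrin receptors TFRC and TFR2 averaged 23.7 and 12.7 FPKM. The metallothioneins MT2A, MT1E and MT1G averaged 110.1, 65.4 and 60.1 FPKM. HAMP, the iron hormone hepcidin, had 1.695, 1.71 and 2.03 FPKM, and HJV, a co-receptor needed for its expression, had 0, 1 and 0 counts.

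Feedback genes of WNT signalling were prominent. Of the WNT list 22 of 29 were at the threshold. Besides DKK1, SP5 had 145, 140.4 and 131 FPKM, NOTUM, a secreted enzyme that inactivates WNT, had 123, 118 and 118 FPKM, and NKD1 had 37.1, 36.7 and 37.9 FPKM. LGR5 averaged 20.3 ± 2.19 FPKM and AXIN2, a standard readout of beta-catenin activity, 18.2 ± 0.238 FPKM (SD, n = 3 each). CTNNB1 itself averaged 26.5 ± 2.06 FPKM. WNT5A and DKK3 had no count, and LEF1 averaged 0.124 FPKM.

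Cell cycle genes were mostly expressed, with 33 of 39 at the threshold and a median of 23.6 FPKM. PCNA, the sliding clamp of replication, had 267, 276 and 258 FPKM, and MCM7, a subunit of the replicative helicase, averaged 114 ± 7.08 FPKM. The mitotic genes CDC20, CCNB1 and PLK1 averaged 114, 90.8 and 85.4 FPKM. CCND1 averaged 52.8 ± 1.35 FPKM, while CCND2 and CCNE2 averaged 0.228 and 0.315 FPKM. CCND3, another D-type cyclin, averaged 1.86 FPKM. Of the inhibitors CDKN1A averaged 35.5, CDKN1B 23.6 and CDKN2A 0.767 FPKM.

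In the growth control list 17 of 19 were at the threshold. MYC had 43.7, 43.5 and 41.4 FPKM, its target ODC1 averaged 156 ± 8.26 FPKM and the YAP target CCN2 75.6 ± 0.579 FPKM (SD, n = 3 each). The immediate early genes FOS and EGR1 averaged 0.437 and 4.46 FPKM.

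Apoptosis regulators had 22 of 26 at the threshold. BAX averaged 98.6 ± 4.85 FPKM, BCL2L1, the BCL-XL gene, 94.8 ± 5.21 FPKM and BIRC5, survivin, 65.9 ± 4.42 FPKM (SD, n = 3 each). BCL2 itself, at 0.278 FPKM, was under the threshold, so BCL2L1 was the higher of these survival genes.

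Most genes of translation and protein handling were at the threshold. Large and small subunit ribosomal proteins held 6.13 ± 0.169% and 6.03 ± 0.1999% of the summed FPKM of nuclear protein-coding genes (SD, n = 3 each). At the threshold were 47 of 51 large and 33 of 33 small subunit genes. The 4 below it were RPL3L, RPL10L and RPL39L, copies known from muscle or testis, and RPL36A, which had 0.898, 1.03 and 1.12 FPKM.

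Translation factors had 26 of 29 at the threshold. EEF1A1 had 1549, 1591 and 1460.0 FPKM, against 0.229, 0.184 and 0.152 FPKM for EEF1A2, the form of muscle and neurons. EEF1G stood at 0.155 FPKM and EIF4A1 at 1.12 FPKM, and 99.9% and 48.6% of their exonic bases are shared with another gene on the same strand.

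All 34 genes of the secretory pathway were at the threshold. CALR, a lectin chaperone, had 742, 672 and 690.4 FPKM, the disulfide isomerase P4HB averaged 398 ± 16.2 FPKM, and HSPA5, the BiP gene, 138 ± 5.21 FPKM (SD, n = 3 each). The lowest, SEC61A2, averaged 1.36 FPKM.

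Cytosolic chaperones had 21 of 25 at the threshold. HSP90AA1 had 83.2, 151 and 119.6 FPKM, with library 1 lowest and library 2 highest, while HSP90AB1 had 1064, 1041 and 1052 FPKM, which differed little. The stress form HSPA6 had no count.

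Of the proteasome genes 33 of 35 were at the threshold. PSMB5 averaged 271 ± 16.5 FPKM (SD, n = 3), while PSMB8, PSMB9 and PSMB10, the subunits of the immune form, averaged 8.79995, 1.41 and 3.89 FPKM. PSMA8, a testis form, had no count, and PSMC1 averaged 0.682 FPKM with 75.8% of its exonic bases overlapped by a gene on the opposite strand.

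The epithelial label and the mesenchymal word of the growth protocol were set against both marker lists. Of 30 epithelial genes 18 were at the threshold, and of 25 mesenchymal genes 5, against 47.6% of all nuclear protein-coding genes. The simple epithelial keratins KRT18 and KRT8 had 346, 293 and 309.5 FPKM and 306, 267 and 288 FPKM, and EPCAM averaged 60.3 ± 9.58 FPKM (SD, n = 3). VIM, the intermediate filament of mesenchymal cells, had 0.08305, 0.0667 and 0.0808 FPKM. The log2 ratio of VIM over KRT18 was -12.01 ± 0.10 (SD, n = 3). The medians were 2.02 FPKM for the epithelial list and 0.0112 FPKM for the mesenchymal list. The squamous keratins KRT5 and KRT14 averaged 0.00495 and 0.00908 FPKM, and GRHL2 and OVOL1, factors of other epithelia, 0.0222 and 0.01403 FPKM.

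The 5 mesenchymal genes at the threshold were FN1, fibronectin, with 360.0, 344 and 377 FPKM, ACTA2, with 27.4, 23.7 and 24.9 FPKM, CDH2, with 10.8, 12.5 and 12.3 FPKM, TAGLN, with 5.49, 4.64 and 4.99 FPKM, and S100A4, with 2.92, 2.81 and 2.65 FPKM. FN1 is also a plasma protein made by hepatocytes, and CDH2 is a cadherin of hepatocytes, where it stands beside CDH1, here at 1.45, 1.44 and 1.499 FPKM. Below the threshold, SNAI1 averaged 0.8798, ZEB1 0.709, PDGFRB 0.508, SPARC 0.185 and COL5A1 0.0552 FPKM. COL1A1 averaged 0.0136, SNAI2 0.0112, TWIST2 0.00879, TWIST1 0.00873 and LUM 0.00652 FPKM, and COL3A1, PDGFRA and ZEB2 averaged 0.00303, 0.00183 and 0.000784 FPKM. CDH11, COL1A2, DCN, FAP, POSTN and THY1 had no count.

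Markers of other cell types were at or near 0 for most members. Of 14 endothelial markers 1 was at the threshold, ESAM with 1.72, 1.64 and 2.17 FPKM, and 7 had no count, among them KDR, CDH5 and TEK. Of 12 stellate cell and fibroblast markers 1 was at the threshold, ACTA2, and DCN, LRAT and HAND2 had no count.

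Of 18 leukocyte markers 3 were at the threshold. LYZ, lysozyme, had 408, 464 and 424 FPKM, whereas the pan-leukocyte gene PTPRC had 1, 2 and 2 counts and CSF1R 0, 0 and 2 counts. Lysozyme was thus high without the general leukocyte markers. CD163 and MARCO, of macrophages, had no count, and CD8A averaged 1.42 FPKM.

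Of 12 bile duct markers 5 were at the threshold, or 41.7%, against 47.6% of all nuclear protein-coding genes. SPP1, osteopontin, had 79.5, 113 and 94.3 FPKM, SOX9 had 55.1, 55.5 and 56.9 FPKM and KRT19 had 57.1, 49.6 and 52.7 FPKM, while KRT7 averaged 0.245 FPKM and CFTR and AQP1 had no count. KRT19 was below KRT18 by a log2 ratio of -2.57 ± 0.02 (SD, n = 3).

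Of 33 regulators and markers of other lineages 2 were at the threshold, TTF1 at 1.86 FPKM and WT1 at 1.16 FPKM, and 16 had no count. TTF1 is a transcription termination factor of ribosomal RNA genes whose symbol is also used for the thyroid and lung factor NKX2-1, and NKX2-1 itself had no count.

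Receptor genes were uneven within each family. Of the growth factor and cytokine receptors 23 of 36 were at the threshold. FGFR4 was highest, as given above, followed by TGFBR2 with 40.4, 45.2 and 44.9 FPKM and FGFR3 with 28.9, 31.2 and 29.2 FPKM. The insulin receptor INSR and IGF1R averaged 6.92 and 6.01 FPKM, MET 12.9 FPKM and ERBB3 24.04 FPKM. EGFR had 0.5299, 0.489 and 0.551 FPKM, and the growth hormone receptor GHR had 0, 1 and 0 counts.

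Of the endocytic and hormone receptors 11 of 23 were at the threshold, a share near the 47.6% of all nuclear protein-coding genes. SCARB1, the receptor of high-density lipoprotein, had 46.4, 40.998 and 44.5 FPKM. The glucocorticoid receptor NR3C1 averaged 1.41 ± 0.2796 FPKM, THRB 1.44 ± 0.249 FPKM (SD, n = 3 each), and the glucagon receptor GCGR, ADRA1B and AVPR1A had no count.

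Among entry factors of hepatitis viruses 8 of 11 were at the threshold. CLDN1 averaged 19.9 ± 1.496 FPKM and OCLN 4.201 ± 0.304 FPKM (SD, n = 3 each). CD81 had 9, 3 and 8 counts, and SLC10A1, the bile salt transporter used by hepatitis B virus, had 1, 1 and 1 counts. MIR122HG, the host transcript of the liver microRNA miR-122, averaged 1.696 FPKM.

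Interferon and innate sensing genes had 18 of 36 at the threshold, a share near the 47.6% of all nuclear protein-coding genes. IFITM3 had 185, 162 and 178 FPKM and ISG15 had 45.7, 37.1 and 43.2 FPKM. MX1, IFIT1 and OAS2 averaged 0.3303, 0.332 and 0.00803 FPKM. The cytosolic DNA sensor CGAS had 0, 0 and 1 counts, and its adaptor STING1 averaged 0.254 FPKM. Members of this list thus lay on both sides of the threshold, with IFITM3 and ISG15 above it and MX1, IFIT1 and OAS2 under it. HLA-DRA, TLR4 and TLR7 had no count.

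The annotation in the deposited table gave a view not tied to the lists. Its gene ontology terms were ranked by the share of their nuclear protein-coding genes at the threshold, among terms with at least 50 such genes, and the terms named here were picked from the ends of that order. Splicing of mRNA via the spliceosome had 117 of 120 genes at the threshold, nonsense-mediated decay 105 of 113, translational initiation 102 of 110 and chromosome segregation 50 of 55. At the other end, olfactory receptor activity had 2 of 335, the voltage-gated potassium channel complex 3 of 72, G-protein coupled receptor activity 31 of 499 and the keratin filament 5 of 50. Cytokine activity had 34 of 163 and synaptic transmission 67 of 293. The extracellular space combined few expressed genes with a high sum. It had 236 of 820 genes at the threshold, a median of 0.0378 FPKM, and 7.85% of the summed FPKM of nuclear protein-coding genes. Terms share genes, so these counts are not independent of each other.

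Genes that share most of their exonic bases with another annotated gene had lower values than genes that share none. By GENCODE 29, 453 nuclear protein-coding genes share over 90% of their exonic bases with another gene on the same strand, and 13 of them, or 2.87%, were at the threshold. For genes that share none on either strand it was 4775 of 11054, or 43.2%. Sharing of over 50 to 90% on the same strand gave 20.8%, and over 50% on the opposite strand only 38.0%. Partial sharing went the other way. It was 55.2% for genes sharing up to 50% on the same strand and 59.6% for up to 50% on the opposite strand only. A low value of a gene that shares most of its exonic bases, EEF1G for example, does not show that it was not expressed. How reads in shared exons were counted is not given in the sources used here.

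Of the genes with at least 10 FPKM in every library, the 10 whose CV most exceeded their counting error were ALB, AFP, APOB, HSP90AA1, FTL, DKK1, NPM1, RPL37A, APOA1 and FGG. ALB had a CV of 16.1% against 0.309% from counting, AFP 16.2% against 0.394%, and HSP90AA1 28.8% against 0.9402%. These genes moved in opposite directions between the libraries. ALB, AFP, APOB, HSP90AA1, DKK1, NPM1 and FGG were lowest in library 1, while FTL, APOA1 and RPL37A were highest there. The nucleolar protein NPM1, for example, had 206, 300.3 and 251 FPKM, and RPL37A had 443, 355 and 382 FPKM. The part that length plays in these differences was not tested.

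**Figure D5:**
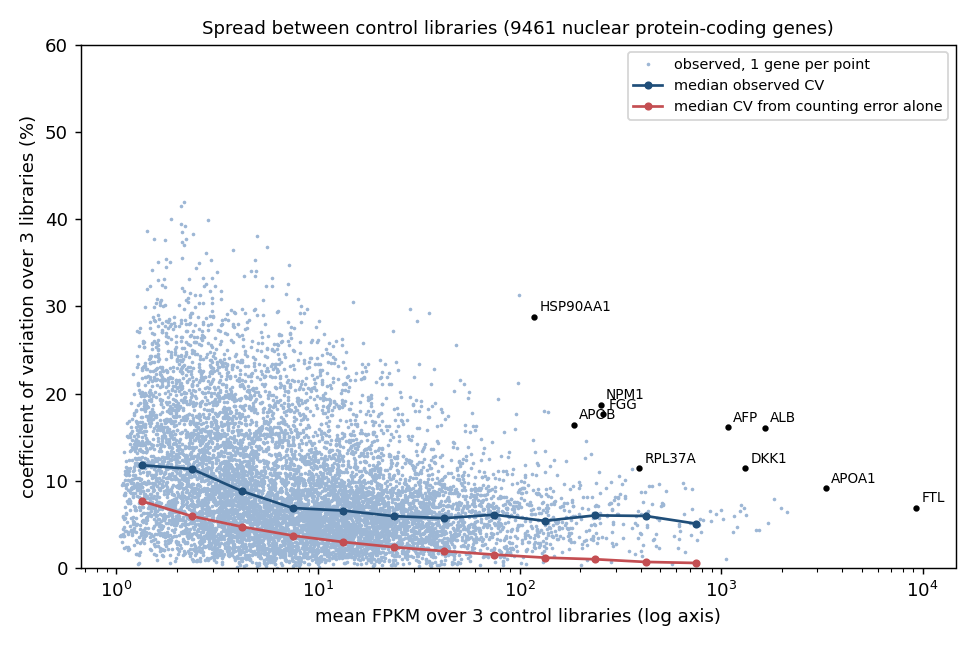
Coefficient of variation over the 3 control libraries (vertical axis, %) against mean FPKM (horizontal log axis) for 9461 nuclear protein-coding genes at the threshold, with the median observed CV and the median CV that counting error alone gives, per bin of at least 20 genes. The observed line lies above the counting line where both are drawn. No bin at 1000 FPKM or more held 20 genes, so FTL, APOA1, ALB, DKK1 and AFP lie beyond the lines. The other named genes lie above both lines.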

How the data were processed

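RNA was sequenced from HepG2 cells, and the 3 sh-ctrl libraries were described. The authors deposited read counts per gene and FPKM in a single annotated table, per the file headers. The submitters' processing notes name GRCm38, mm10 and hg18 without a role for any of them, and mouse builds are among them. For the aligner, the counting rule and its use of strand, the sources used here give no information. The gene identifiers were matched to GENCODE 29 (96.3%), and of those matched 99.9% overlapped its coordinates, so gene types and shared exons were taken from it.

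FPKM was recomputed from the counts, the deposited exonic length and the library total, and it differed from the deposited FPKM by at most 0.0049998. Exonic length covers all annotated exons of a gene, so FPKM understates genes whose main transcript is short. No model was fitted for a result, and no pseudocount was used. Further per-sample columns of the table, 6 in number, were not used. Counts are read counts without molecular identifiers, so counting errors and the limit of 3 counts cover counting error only.

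The libraries, the 48 gene lists and the 35 gene pairs were chosen with earlier results of these data known, and 1 of 1222 listed symbols was not in the table used. The genes named are the highest by mean FPKM with at least 300 exonic bases (25 protein-coding, 10 other nuclear), the mitochondrial messages, the up to 5 highest and 5 lowest members of each list, both members of a pair, the 10 with the largest ratio of observed to counting CV, and all members of 4 lists (mature hepatocyte, mesenchymal, AMPK, liver transcription factors). Some genes that this rule picks are not reported here, and they stay in the counts and medians. Other genes and the ontology terms were named after their values were seen. TMM factors from edgeR 4.0.16 (0.986 to 1.01) served as an alternative scaling, beside TPM, other thresholds, a count minimum and leaving out each library. The computation was tested on simulated data and run with Python 3.11.15, numpy 2.4.6 and pandas 2.3.3.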

Additional observations from a re-analysis of the deposited data

How the results depend on the processing

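The count of 10606 genes at 1 FPKM or more stayed within 1.5 times under every alternative run, from 8711 at a threshold of 2 FPKM to 12851 when values were scaled as TPM. It was 10624 with the deposited FPKM, which are rounded to 2 decimals, 10615 with TMM, and 10710 to 10931 when each library was left out. The 10 most counted genes held 6.43% of nuclear counts when mitochondrial genes were left out and 25.1% as a share of FPKM. Leaving out each library gave 10.3 to 10.4%. The mitochondrial share was 25.9% as a share of FPKM, since the division by length favours its short genes, and 9.45 to 9.63% with each library left out. Plasma proteins and apolipoproteins held 5.63% of nuclear protein-coding counts, against 7.78% of FPKM, and 7.78 to 7.79% with each library left out.

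The log2 ratio of DGAT1 over DGAT2 turned to -0.49 without division by exonic length. Of the 31 pair ratios, 22 others moved by more than their SD under that choice, and none did when a library was left out. List counts moved by over 1.5 times for 5 of 48 lists with TPM, 1 at 0.5 FPKM and 3 at 2 FPKM, all of them small counts except bile acids. All list medians moved with TPM, since FPKM does not sum to a fixed total, and 5 moved with TMM. By more than the spread between libraries, 5, 6 and 4 medians moved when library 1, 2 or 3 was left out. Leaving out genes that share over 50% of their exons moved no list count by over 1.5 times, and this choice was made after seeing the data. No paired analysis was possible because a single group was described. With 3 libraries, a gene without a count is not shown to be silent, and leaving out mitochondrial genes was not run for shares defined on nuclear or mitochondrial genes alone.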

Other observations

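Some long noncoding RNA genes outside the list reached levels close to or above those of its highest members. The 10 long noncoding RNA genes with the highest mean FPKM and at least 300 exonic bases included SNHG19, NORAD, SNHG29, SNHG3 and SNHG6, described above. BOK-AS1, annotated antisense to the apoptosis gene BOK, had 46.9, 48.4 and 42.5 FPKM, and 31.3% of its exonic bases lie over exons of BOK on the other strand. HS1BP3-IT1 had 43.5, 50.7 and 42.6 FPKM and its neighbour AC012065.2 had 44.9, 45.7 and 42.4 FPKM. Both lie on chromosome 2 at 20586248-20586686 (AC012065.2) and 20590775-20592548 (HS1BP3-IT1) in GENCODE 29 (GRCh38), and in the 3 libraries their levels were alike.

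Most genes annotated to the mitochondrion and encoded in the nucleus were at the threshold. By the deposited annotation it was 690 of 937 nuclear protein-coding genes of this term, or 73.6%, against 47.6% of all nuclear protein-coding genes. The genes of the term had a median of 4.91 FPKM and held 7.59% of the summed FPKM. The plasma membrane term had 939 of 2482, or 37.8%, at the threshold and 11.4% of the sum, with a median of 0.101 FPKM. These values are a description, and terms share genes.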
